A study of Homo sapiens with 15 samples.

Results

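RNA-seq counts were examined for 10 genes that switch MAPK signaling off or read it out: the dual-specificity phosphatases DUSP1, DUSP4, DUSP5, DUSP6 and DUSP10, the Sprouty genes SPRY2 and SPRY4, SPRED1, PHLDA1 and the transcription factor ETV5. They were taken by name from the 23368 genes of the count table, and all 10 passed the filter on low values. The 15 libraries came from 3 single-cell-derived breast cancer clones, each without doxycycline and at 1, 2.5, 5 and 25 ng/ml, with 1 library per clone and dose. WT6 and WT10 carried doxycycline-inducible FLAG-tagged wild type RBM47, an RNA-binding protein, and MUT3 carried the inducible RBM47-I281fs mutant, a frameshift that truncates the protein at the last of its RNA recognition motifs. The labels give MDA231 as the line of every clone. By the methods, WT10 and MUT3 came from its brain-metastatic derivative MDA231-BrM2 and WT6 from CN34-BrM2, so WT6 differs from WT10 in parental line as well as in clone. Each clone stands for 1 cell, no replicate culture was sequenced and no clone without an RBM47 transgene was included, so clone, line and transgene cannot be told apart. The question was how the feedback genes changed as RBM47 was induced, and whether wild type and mutant clones differed.

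Growth factor receptors signal through RAS, RAF, MEK and ERK, and active ERK turns on the genes that later restrain it. Dual-specificity phosphatases take phosphate off ERK, JNK and p38, Sprouty and SPRED proteins act upstream at the receptor and RAS, and ETV5 is a transcription factor made in response to ERK. Their messages are therefore commonly read as a gauge of pathway output.

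RBM47 mRNA was induced in all clones, though not in step. Its normalized count, that is, its reads scaled by a size factor for each library, was 258 in untreated WT6 and 3137, 8094, 3966 and 10425 at the 4 rising doses. WT10 went from 168 to 827, 2822, 8134 and 19877. MUT3 held 73.8, 92.1, 336 and 949 up to 5 ng/ml and then 22084. WT6 was thus lower at 5 than at 2.5 ng/ml, and MUT3 stood far below WT10 at every dose but the highest. Reads of the transgene and of the endogenous gene were counted together. These counts do not measure protein. In non-clonal MDA231-BrM2 cells given doxycycline, the paper detected no RBM47-I281fs protein by Western blot and judged the mutant protein unstable.

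The libraries held between 14955172 and 44771871 reads on genes, and no member rested on fewer than 206 reads in a library, which has a 95% Poisson interval of 178.8 to 236.1 for counting error only. Of the markers of mesenchymal breast cancer cells, VIM lay between 50755 and 104639 and CD44 was at least 7100. KRT8 and KRT18 were at least 8159, and SPARC was low in WT6, as given below. Of the markers that such cells lack or hold low, ESR1 was at or below 12.0, PGR at or below 23.8 and CDH1 at or below 19.9, while ERBB2 lay between 1018 and 1584 and EPCAM between 136 and 456. Of the markers of other cell types, CD3E, PTPRC and PECAM1 were at or below 9.19 and COL1A1 lay between 178 and 493. KRT8 and KRT18, keratins of simple epithelia, rose with dose in both wild type clones. At 25 ng/ml they stood at 2.24-fold and 2.35-fold in WT6 and 1.47-fold and 1.67-fold in WT10. The limma slopes had adjusted p = 0.000109, 9.03e-05, 0.038 and 0.0156. In WT10 the rise lay mainly at 25 ng/ml. KRT8 held 11288 untreated, 10753 at 5 and 16573 at 25 ng/ml there, and KRT18 held 9183, 9440 and 15294. COL1A1 rose in WT10 (slope 0.16, adjusted p = 0.0321), and ERBB2 fell in WT6 and WT10. The part of these markers in the results was not tested. SPARC and DCN went against their marker lists in WT6. SPARC, of the mesenchymal list, was at 2.06 to 7.47 there against at least 1502 in the other clones. DCN, of the list of other cell types, was at 190 to 735 in WT6 against at most 1.08. At 25 ng/ml DCN stood at 3.88-fold its untreated WT6 count. The WT6 libraries at 5 and 25 ng/ml stood apart from the rest. Relative to untreated WT6, the quintile of shortest transcripts had a median log2 change of 0.60 and 0.58 there, and the quintile of longest ones of -0.41 and -0.45. In the other libraries these medians lay between -0.08 and 0.06. WT6 slopes are therefore given with these 2 libraries, without them, and with the trends over transcript length and GC content removed.

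AU-rich elements in the 3′ UTR, built around the pentamer ATTTA, mark many short-lived messages and are bound by many RNA-binding proteins. The annotated 3′ UTRs of the members ran from 666 to 5585 bases (hg19). At least 1 ATTTA on the transcript strand was found in 9 of them, against 88.0% of the 7430 tested genes with a 3′ UTR in that range of lengths. SPRED1 held 24 pentamers, PHLDA1 14, SPRY4 8, DUSP4 6, DUSP1 and ETV5 4 each, DUSP10 3, SPRY2 2 and DUSP6 1, overlapping ones included, while DUSP5 held none. Per kilobase DUSP1 stood highest, at 6.01. The longer nonamer TTATTTATT, which contains the pentamer, was found in DUSP1, DUSP4 and PHLDA1, so in 3 of 10 members against 11.1% of the same background. Windows of 30 bases that start 2 bases before a pentamer were compared, and the one with the most pentamers is shown. The first was taken where several tied. In SPRY4 and ETV5 no window held more than 1, so theirs is that of the first pentamer. The windows are given 5′ to 3′ as DNA, with ATTTA in capitals. They cover 3 members that rose with dose in a wild type clone (DUSP1, DUSP10 and PHLDA1) and 3 that fell (SPRY4, SPRED1 and ETV5). They lie at chr5:172195635-172195664 for DUSP1, chr1:221874834-221874863 for DUSP10, chr5:141693083-141693112 for SPRY4, chr12:76423566-76423595 for PHLDA1 and chr3:185765583-185765612 for ETV5, all on the minus strand, and at chr15:38645554-38645583 for SPRED1 on the plus strand.
DUSP1: ttATTTATTTAacttcacccgagttcctct
DUSP10: aaATTTATTTAaaaatatttttcgcaaaaa
SPRY4: ggATTTAggagccactgctcagtgcacttc
SPRED1: gcATTTAtATTTAtatgacagcttgaactg
PHLDA1: tgATTTAtgattATTTAttagttttttttt
ETV5: gtATTTAaagcaaaaaaacgaaaaacaaaa
In DUSP1 and DUSP10 the same 9 bases, 2 overlapping pentamers, stand in capitals, and SPRED1 and PHLDA1 hold 2 separate ones, and SPRY4 and ETV5 hold 1. The pentamer was present in members that rose with dose as well as in members that fell. Whether RBM47 or another protein binds these bases was not tested.

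Feedback genes changed with dose in both wild type clones, in either direction, and none passed the test in MUT3. The change was fitted as a slope of log2(normalized count + 1) on log2(dose + 1), in 1 limma fit over all 15 libraries and 12644 genes, with an adjusted p under 0.05 called. From 0 to 25 ng/ml spans 4.70 units of that dose scale. In WT6, 8 of 10 members were called, 2 rising and 6 falling. This stands against 57.5% of all genes called, 29.2% rising and 28.3% falling. In WT10, 5 members were called, 2 rising and 3 falling, against 20.0% of all genes, 10.2% rising and 9.83% falling. In MUT3, 0 members were called and 0% of all genes, with 0 members and 295 genes at an unadjusted p under 0.05. On the whole reads, edgeR called 1 gene and DESeq2 8 genes in MUT3, none of them a member. The spread in the main fit is shared by the 3 clones. With MUT3 fitted alone, limma called 0 members and 177 genes (1.33%). In that fit 0 members and 1395 genes had an unadjusted p under 0.05. SPRY4, ETV5 and DUSP4 fell and DUSP10 rose in both wild type clones.

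**Figure D1:**
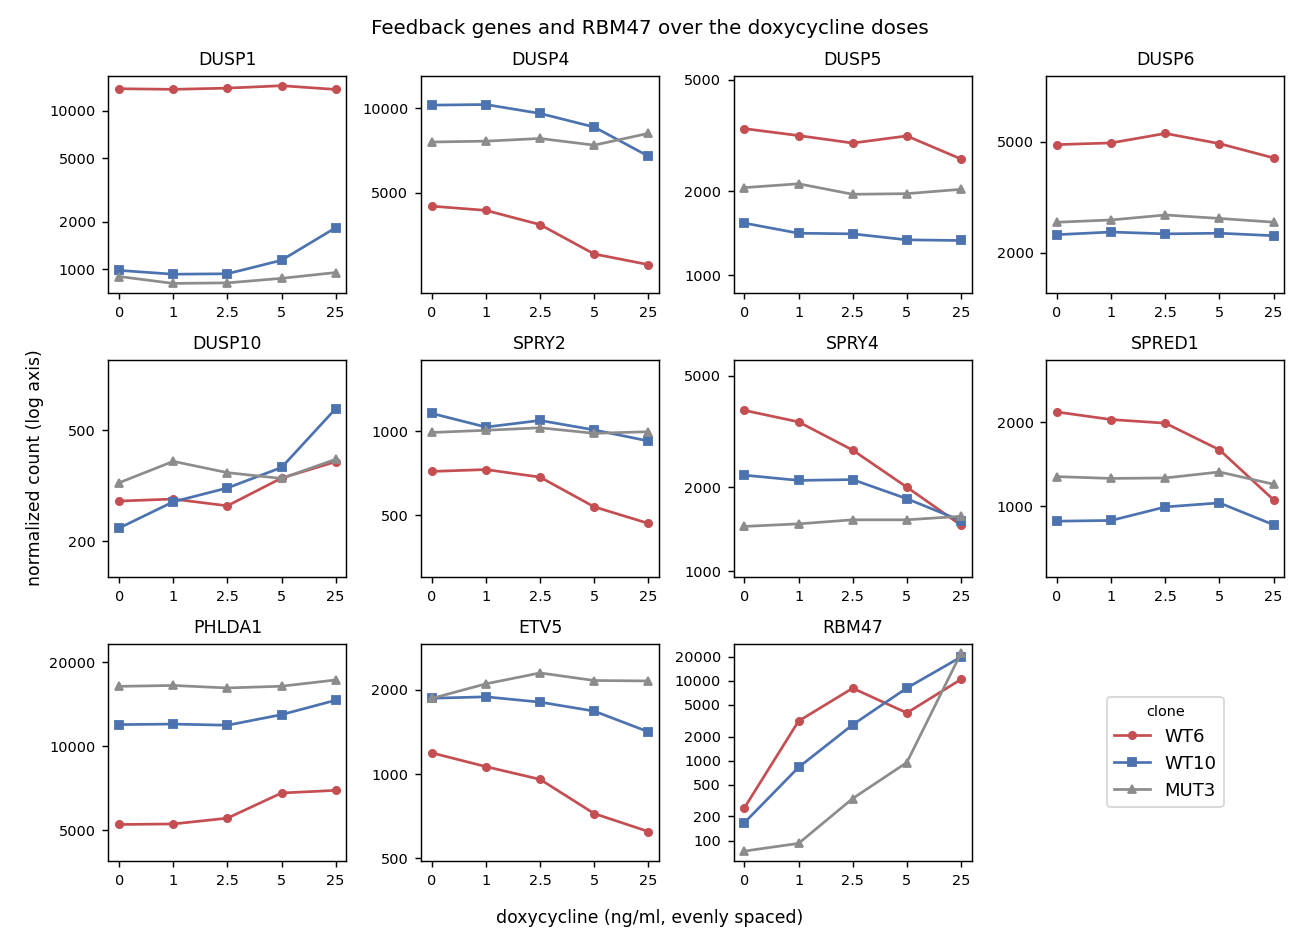
Normalized counts on a log axis over the 5 doxycycline doses (ng/ml, evenly spaced) for the 10 feedback genes and RBM47, with 1 point for each library and 1 line for each clone. SPRY4 goes from 3763 to 1462 in WT6 and from 2206 to 1517 in WT10, while the MUT3 line runs between 1446 and 1572.

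**Figure D2:**
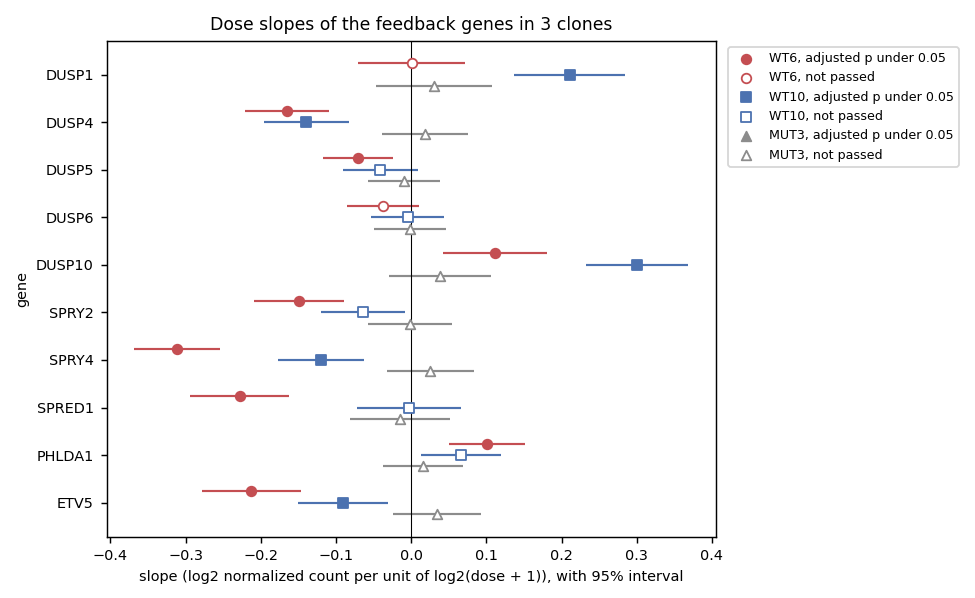
Slope of each gene in each clone, in log2 normalized count per unit of log2(dose + 1), with bars for the 95% interval of the limma fit and filled marks for an adjusted p under 0.05. SPRY4, ETV5 and DUSP4 lie left of 0 and DUSP10 right of 0 with filled marks in both wild type clones, and every MUT3 mark is open.

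SPRY4, a Sprouty protein that dampens receptor signaling to RAS and ERK, fell in both wild type clones, with the steepest slope of the members in WT6. In WT6 its count was 3763 without doxycycline and 3422, 2712, 1999 and 1462 at the rising doses, lower at each step. WT10 held 2206, 2113, 2127, 1817 and 1517. MUT3 held 1446, 1477, 1527, 1527 and 1572. The highest dose thus left 0.389 of the untreated count in WT6 and 0.688 in WT10, where the first 3 doses stayed close together. The 3 clones, up to 2.60-fold apart without doxycycline, ended between 1462 and 1572. The slope was -0.31 ± 0.03 (SE) in WT6 (limma, adjusted p = 2.6e-06) and -0.12 ± 0.03 in WT10 (adjusted p = 0.00607). WT6 fell more steeply than WT10, by -0.19 per unit (adjusted p = 0.0134). SPRY4 was the 1 member that still passed without the 5 and 25 ng/ml libraries of WT6, with a slope of -0.26 (adjusted p = 0.0225).

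SPRY2, the paralogue with the same role, was steadier. WT6 counts were 717, 728, 684, 535 and 467, so the drop came at 5 and 25 ng/ml. WT10 counts were 1156, 1033, 1091, 1009 and 921, and MUT3 counts stayed within 981 to 1027. The slope passed in WT6, at -0.15 ± 0.03 (limma, adjusted p = 0.000519), but its value was -0.04 (adjusted p = 0.829) without the 2 highest doses of WT6. In WT10 the slope was -0.06 (adjusted p = 0.0989), and it passed there once the trends over length and GC content were removed (-0.08, adjusted p = 0.0213).

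SPRED1, which brings the RAS-inactivating protein neurofibromin to the membrane, fell in WT6. Its counts there were 2178, 2047, 1987, 1595 and 1056, lower at each step and down to 0.485 of the untreated value. WT10 counts were 886, 891, 996, 1030 and 860, higher at each step up to 5 ng/ml and then lower. MUT3 counts ran from 1201 to 1329, with no order by dose. The WT6 slope was -0.23 ± 0.03 (limma, adjusted p = 4.22e-05), and it differed from the WT10 slope, which was 0.00, by -0.23 (adjusted p = 0.0136). SPRED1 belongs to the quintile of longest transcripts. With the trends over length and GC content removed the WT6 slope was -0.12 (adjusted p = 5.84e-06), and without the WT6 libraries at 5 and 25 ng/ml it was -0.07 (adjusted p = 0.592).

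ETV5, an ETS factor induced by ERK, fell in both wild type clones. WT6 held 1191, 1063, 957, 722 and 623, lower at each step. WT10 held 1868, 1890, 1809, 1680 and 1417. MUT3 held 1865 untreated, level with WT10, and between 2104 and 2301 with doxycycline. At the highest dose 0.523 of the untreated count was left in WT6 and 0.759 in WT10, and the treated MUT3 libraries all lay above all WT10 libraries. Slopes were -0.21 ± 0.03 in WT6 (limma, adjusted p = 7.61e-05) and -0.09 ± 0.03 in WT10 (adjusted p = 0.0333). The difference between WT10 and MUT3, -0.13, missed the threshold (adjusted p = 0.0732) and passed with the trends removed (-0.11, adjusted p = 0.0139). Without the 2 highest doses the WT6 slope was -0.17 (adjusted p = 0.205).

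DUSP4, a nuclear phosphatase of ERK and JNK, fell in both wild type clones. In WT6 it held 4471, 4318, 3840, 3014 and 2762. In WT10 it held 10282, 10331, 9598, 8581 and 6752. MUT3 libraries lay between 7392 and 8145, the highest of them at 25 ng/ml. Both wild type clones therefore ended near the same share of their start, 0.618 in WT6 and 0.657 in WT10, although untreated WT6 held 0.435 of the WT10 count. The slopes were -0.17 ± 0.03 (limma, adjusted p = 0.000139) and -0.14 ± 0.03 (adjusted p = 0.00244), and their difference was -0.03 with a 95% interval of -0.11 to 0.05. WT10 differed from MUT3 by -0.16 per unit (adjusted p = 0.0265). In WT6 the slope without the 2 highest doses was -0.12 (adjusted p = 0.277).

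DUSP5 and DUSP6, the phosphatases that act on ERK almost alone, in the nucleus and in the cytoplasm, changed little. DUSP5 counts were 3346, 3160, 2971, 3151 and 2606 in WT6. In WT10 they were 1536, 1413, 1406, 1338 and 1331, lower at each step, and in MUT3 1948 to 2124. Its WT6 slope of -0.07 ± 0.02 passed (limma, adjusted p = 0.0127), and its WT10 slope of -0.04 did not (adjusted p = 0.239). DUSP6, the classic readout of ERK activity, gave 4877, 4946, 5348, 4917 and 4370 in WT6. WT10 held 2302 to 2373 and MUT3 2572 to 2731. The clones did not overlap, and no order by dose was seen in any of them. Slopes of DUSP6 were -0.04, 0.00 and 0.00 in WT6, WT10 and MUT3, with 95% intervals of -0.08 to 0.01, -0.05 to 0.04 and -0.05 to 0.05.

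DUSP10, which prefers p38 and JNK over ERK, rose. WT10 counts were 223, 277, 310, 367 and 596, higher at each step and 2.67-fold at the highest dose. WT6 counts were 278, 283, 268, 337 and 385. MUT3 counts were 324, 386, 352, 335 and 393. The clones overlapped throughout, and only WT10 at 25 ng/ml stood above all libraries of the other clones. The slope was 0.30 ± 0.03 in WT10 (limma, adjusted p = 4.02e-05) and 0.11 ± 0.03 in WT6 (adjusted p = 0.00944). WT10 exceeded MUT3 by 0.26 per unit (adjusted p = 0.00693) and WT6 by 0.19 (WT6 minus WT10 -0.19, adjusted p = 0.0222). In WT6 the direction rested on the highest doses, since the slope without 5 and 25 ng/ml was -0.03 (adjusted p = 0.909).

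DUSP1, an immediate early phosphatase of p38, JNK and ERK, rose in WT10. Its counts there were 987, 934, 939, 1143 and 1832, so the 1.86-fold change lay in the last doses. MUT3 counts ran from 817 to 956. WT6 held between 13616 and 14368 at every dose, a spread of 5.47% of the median around a level 13.9-fold above untreated WT10. The slope was 0.21 ± 0.03 in WT10 (limma, adjusted p = 0.000897) and 0.00 ± 0.03 in WT6 (adjusted p = 0.99), a difference of -0.21 for WT6 minus WT10 (adjusted p = 0.0194). WT10 exceeded MUT3 by 0.18 (adjusted p = 0.0476). With the trends over length and GC content removed, the WT6 slope became -0.09 (adjusted p = 0.00569).

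PHLDA1, a pleckstrin homology-like protein whose message follows ERK activity, rose in WT6. The counts were 5247, 5270, 5528, 6801 and 6951 there, higher at each step. WT10 held 11951, 12003, 11890, 12974 and 14608, and MUT3 held 16165 to 17264. The 3 clones did not overlap, with WT6 lowest and MUT3 highest at every dose. The WT6 slope was 0.10 ± 0.02 (limma, adjusted p = 0.00259), although PHLDA1 lies in the quintile of longest transcripts, whose median went the other way. It was 0.19 with the trends removed (adjusted p = 0.000116) and 0.04 without the 2 highest doses (adjusted p = 0.712). In WT10 the slope was 0.07 (adjusted p = 0.072), and it passed when those WT6 libraries were left out of the shared fit (adjusted p = 0.00135).

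**Figure D3:**
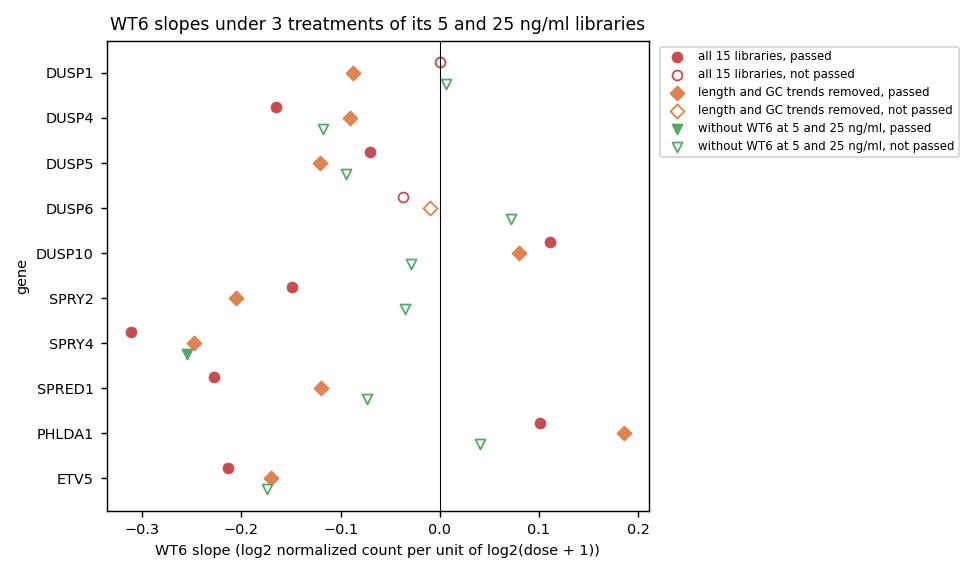
WT6 slope of each gene, in log2 normalized count per unit of log2(dose + 1), from all 15 libraries (circles), with the trends over transcript length and GC content removed (diamonds) and without the WT6 libraries at 5 and 25 ng/ml (triangles), filled where the adjusted p was under 0.05. Removing the trends leaves 9 filled marks, and leaving out the 2 libraries leaves that of SPRY4.

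Counts of calls in WT6 moved with its 2 highest doses. With the trends over length and GC content removed, 9 members were called in WT6, 2 rising and 7 falling, DUSP1 among the latter, against 58.6% of the 12107 genes in that fit. Without the 5 and 25 ng/ml libraries of WT6, an alternative chosen after seeing the data, 1 was called, with 177 genes in all and 3 members at an unadjusted p under 0.05. In WT10, the calls rested on 25 ng/ml: without that dose limma called 0 of 10 members and 17 genes, with 1 member at an unadjusted p under 0.05. The RBM47 count of WT10 at 5 ng/ml, 8134, was close to that of WT6 at 2.5 ng/ml, 8094.

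Between wild type and mutant in 1 parental line, WT10 minus MUT3, 4 members differed in slope: DUSP10 and DUSP1 upward, DUSP4 and SPRY4 downward. This compares with 5.62% of all genes. These 4 calls rested on the highest dose. Limma called 0 members without 25 ng/ml, without the WT10 library at 25 ng/ml or without that of MUT3. In these refits 0, 0 and 2 of all genes passed, with 2, 3 and 5 members at an unadjusted p under 0.05. For DUSP6, SPRED1, DUSP5, SPRY2, PHLDA1 and ETV5 the difference did not pass, and its 95% interval for DUSP6 was -0.07 to 0.07. At 25 ng/ml the RBM47 mRNA count stood at 19877 in WT10 and 22084 in MUT3. DUSP4 held 6752 and 8145 there, although untreated WT10 was the higher. DUSP1 held 1832 against 956 and DUSP10 596 against 393. ETV5 held 1417 in WT10 and 2154 in MUT3, from nearly equal untreated counts. SPRY4 held 1517 and 1572. Between the wild type clones, WT6 minus WT10, 4 members differed in slope, SPRED1, DUSP1, SPRY4 and DUSP10, all with the lower slope in WT6, against 14.4% of all genes. Without the WT6 libraries at 5 and 25 ng/ml, 0 members passed this limma test, with 3 at an unadjusted p under 0.05. Of all 12597 genes, 4 passed it. These comparisons share WT10.

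The clones also differed in the level of the feedback genes before any doxycycline. Between WT6 and WT10, 9 of 10 fitted untreated levels differed (limma), against 59.6% of all genes. DUSP1 was higher in WT6 by 4.04 on the log2 scale, SPRED1 by 1.34, DUSP5 by 1.17, DUSP6 by 1.13 and SPRY4 by 0.77. WT6 minus WT10 was -1.26 for DUSP4, -1.17 for PHLDA1, -0.71 for ETV5 and -0.58 for SPRY2. DUSP10 was at 0.26 (adjusted p = 0.0822). The ERK phosphatases DUSP5 and DUSP6 were thus higher in WT6, while DUSP4 and ETV5 were higher in WT10. Over the 5 doses, the counts of WT6 and WT10 did not overlap for 8 members, against 44.7% of all genes, and those of WT6 and MUT3 for 7, against 53.0%.

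Within the MDA231-derived pair fewer levels differed. For WT10 minus MUT3, 6 of 10 levels differed, against 28.2% of all genes. SPRY4 was higher in WT10 by 0.65 and DUSP4 by 0.54. DUSP10 was at -0.62, PHLDA1 at -0.49, SPRED1 at -0.47 and DUSP5 at -0.46. No difference passed for DUSP1, DUSP6, SPRY2 and ETV5, and the interval for DUSP1 was -0.28 to 0.28. The ranges did not overlap for 4 members, DUSP5, DUSP6, SPRED1 and PHLDA1, against 37.1% of all genes.

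To set the genes beside each other, counts were divided by transcript length. DUSP1 led in WT6, with a median of 6833 normalized counts per kilobase, clear of DUSP6 at 1356. DUSP6 overlapped DUSP5 at 1272, which overlapped PHLDA1 at 935. DUSP4, SPRY4, SPRY2, SPRED1 and ETV5 followed, each overlapping the next, and DUSP10 was lowest at 109. In WT10 and MUT3 the order was another one, with PHLDA1 first, at 2030 and 2773, and DUSP4 next, at 1728 and 1376, neither overlapping its neighbour. DUSP1, first in WT6, took the fifth place in WT10 at 490 and the sixth in MUT3 at 437, overlapping its neighbours in both. SPRED1 and DUSP10 were the lowest in both, at 123 and 120 in WT10, where they overlapped, and at 174 and 136 in MUT3, where they did not.

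Other genes of the pathway were examined beside the feedback genes. The background for all list counts that follow is the share of all genes called. It was 57.5% in WT6 (29.2% rising, 28.3% falling) and 20.0% in WT10 (10.2% rising, 9.83% falling). The ERK cascade list held adaptors, RAS, RAF, MEK and ERK genes. In WT10, limma called 0 of its 15 genes, with 2 at an unadjusted p under 0.05. The calls became 2 rising and 1 falling with the trends over length and GC content removed, against 36.1% of all genes. They became 3 rising without the WT6 libraries at 5 and 25 ng/ml, against 38.8% of all genes. Those libraries enter the shared estimate of the spread. In WT6 3 rose and 5 fell, among them PTPN11 (the phosphatase SHP2, -0.26, adjusted p = 6.25e-05) and MAP2K2 (MEK2, 0.12, adjusted p = 0.003), the values being limma slopes. Of 12 tested genes of the stress kinase cascade, 3 rose and 2 fell in WT6 and 1 rose and 1 fell in WT10. MAP3K7, the kinase TAK1, fell in both clones, by 0.36 in WT6 and by 0.17 in WT10.

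Other family members went both ways. Of 10 further DUSP, SPRY and SPRED genes tested, 5 rose and 3 fell in WT6, and 1 rose and 2 fell in WT10. DUSP7, a cytoplasmic ERK phosphatase related to DUSP6, fell in WT6 (-0.19, limma adjusted p = 3.45e-05) and WT10 (-0.17, adjusted p = 0.000379), and differed between WT10 and MUT3 (-0.19, adjusted p = 0.00886). DUSP3, a small phosphatase of ERK and JNK, rose in both, by 0.16 and 0.10. SPRY1 fell in WT6 by 0.16 (limma, adjusted p = 0.00182) and in WT10 by 0.14 (adjusted p = 0.0138). Among 11 other brakes on receptors and RAS, 4 rose and 5 fell in WT6, with the receptor inhibitor ERRFI1 at 0.19 and the RAS GTPase-activating protein gene RASA1 at -0.33, and 1 rose and 2 fell in WT10. RASA1 was among those that fell there, by 0.16.

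Genes that follow ERK activity gave counts in both directions too. Of 12 tested, 4 rose and 6 fell in WT6 and 1 rose and 2 fell in WT10. EGR1, an immediate early transcription factor, rose in both clones, with slopes of 0.22 (limma, adjusted p = 5.97e-06) and 0.09 (adjusted p = 0.0146), but its WT10 slope was not set apart from that of MUT3 (difference 0.03, adjusted p = 0.714). FOS and IER3, also immediate early genes, rose in WT6 by 0.28 and 0.20. FOSL1, an AP-1 subunit whose message depends on sustained ERK activity, fell in WT6 by 0.17 (limma, adjusted p = 0.000143). It fell in WT10 by 0.17 (adjusted p = 0.000829) and differed there from MUT3 by -0.21 (adjusted p = 0.0105). The receptor EPHA2 fell in WT6 by 0.20 and in WT10 by 0.11, and WT10 differed from MUT3 by -0.17 (adjusted p = 0.0387). In MUT3, limma called 0 genes of these lists, with 2 at an unadjusted p under 0.05. Median slopes in WT6 were -0.11 for the 10 feedback genes, 0.11 for the further DUSP, SPRY and SPRED genes and -0.06 for the ERK output genes, against 0.01 for all genes. Without the WT6 libraries at 5 and 25 ng/ml, 1 gene of the other brakes and 1 of the ERK output genes passed in WT6, and 0 of the remaining lists. Of all genes, 1.41% passed there. With the trends over length and GC content removed, the counts of rising and falling genes in WT6 were 2 and 4 for the ERK cascade, 2 and 3 for the stress kinases, 5 and 3 for the further family members, 4 and 4 for the other brakes and 3 and 7 for the ERK output genes. Of all genes, 58.6% were called in that fit.

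**Figure D4:**
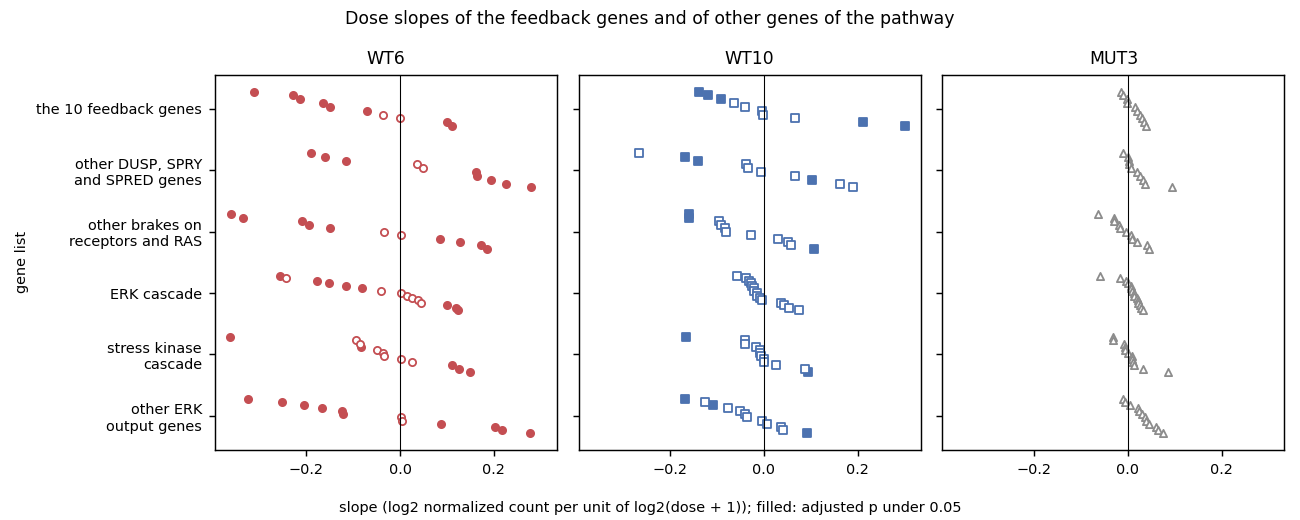
Slopes in log2 normalized count per unit of log2(dose + 1), 1 panel for each clone and 1 mark for each gene of the feedback genes and 5 further lists, filled where the adjusted p was under 0.05. Every list holds filled marks on both sides of 0 in WT6, the ERK cascade holds 0 filled marks in WT10, and MUT3 has 0 filled marks.

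The members lie on 8 chromosomes of hg19. DUSP1 (chr5:172195099-172198198), DUSP6 (chr12:89741012-89746278), SPRY4 (chr5:141689992-141706020), PHLDA1 (chr12:76419227-76425556) and ETV5 (chr3:185764103-185828107) overlap a gene on the opposite strand, and ETV5 also overlaps DGKG on its own strand. Whether the libraries kept the strand is not given in the sources used here, so reads of these partners cannot be told apart if they did not. DUSP5 (chr10:112257665-112271291), DUSP10 (chr1:221874766-221915431), SPRY2 (chr13:80910111-80915261), SPRED1 (chr15:38545037-38649450) and DUSP4, on chromosome 8, have no such partner in the annotation.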

How the data were processed

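PolyA-selected RNA from 15 cultures was sequenced as paired-end reads. The authors mapped them to hg19 with STAR, counted reads per gene with HTSeq 0.5.4 and scaled libraries with DESeq. The deposited unit is a normalized signal, reads over the DESeq size factor. Of the deposited values, 100.0% were whole multiples of the smallest value in their column (tolerance 0.01), which gave back the whole reads. The annotation used for counting is not given in the sources used here. HTSeq tallies of reads without a gene (56.5 to 59.6% of reads) were left out.

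The limma 3.58.1 fit used log2(normalized count + 1) with vooma weights and 6 coefficients, an intercept and a slope for each clone, which left 9 residual degrees of freedom. It covered genes with a mean of at least 10 in each clone and was adjusted by Benjamini-Hochberg. The p-values measure the spread of single libraries about the dose line, since no culture was repeated. Levels are the fitted intercepts. Alternatives included edgeR 4.0.16 and DESeq2 1.42.0 (R 4.3.3), other dose scales, filters and pseudocounts, spline removal of length and GC trends, and each library left out. Lengths, 3′ UTRs and positions came from GENCODE on hg19, and windows were checked against the genome. The limma fit was tested on simulated counts with known WT10 slopes. It called 4.55 to 9.09% of slopes of size 0.1, 55.9 to 72.3% of 0.2 and 77.4 to 92.6% of 0.3. Of its calls, 3.81 to 7.61% were false. Most slopes of size 0.1 were thus missed, so a slope that did not pass is not shown to be absent. All 10 members are described, and of other lists at most the 3 genes with the smallest adjusted p for each comparison. Members and lists were chosen with earlier results of these data known.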

Additional observations from a re-analysis of the deposited data

Results flagged for a closer look

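A difference between clones in the dose slope passed the limma test for 4 members in each of the 2 comparisons made, WT10 minus MUT3 and WT6 minus WT10. WT10 exceeded MUT3 for DUSP10 (0.262, adjusted p = 0.00693) and DUSP1 (0.181, adjusted p = 0.0476), with both counts higher in WT10 at 25 ng/ml. WT10 minus MUT3 was -0.158 for DUSP4 (adjusted p = 0.0265) and -0.146 for SPRY4 (adjusted p = 0.0384). WT6 minus WT10 was -0.226 for SPRED1 (adjusted p = 0.0136), -0.191 for SPRY4 (adjusted p = 0.0134), -0.211 for DUSP1 (adjusted p = 0.0194) and -0.189 for DUSP10 (adjusted p = 0.0222). All slopes are in log2 normalized count per unit of log2(dose + 1), from 5 libraries per clone. RBM47 counts differed between WT10 and MUT3 below 25 ng/ml (8134 against 949 at 5 ng/ml), and their part in the differences was not tested.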

How the results depend on the processing

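The 36 member results called in the main fit, 9 and 6 of them level differences, were refitted 942 times. Results not called there were left out, so gained calls do not appear. Some refits dropped only a library of a clone outside the comparison. The called results kept direction and side of the threshold in 833 refits, lost the call in 108 and reversed in 1, the WT6 slope of DUSP10 (-0.0286 without WT6 at 5 and 25 ng/ml). Against 8 members called in WT6, 5, 4 and 4 in the WT10 slope, WT10 minus MUT3 and WT6 minus WT10, the dose in ng/ml gave 3, 2 and 2 for the last 3. All genes called at that dose scale were 15.4%, 1.61% and 1.76%, in the same order. With log2 RBM47 in place of dose 0 were called in WT6, 1 in WT10, and 0 in both differences. All genes called there were 2, 89, 0 and 0 of 12644. Without 25 ng/ml 0 were called in WT10 and in both differences. Of all 12588 genes, 17 passed in WT10, 0 for WT10 minus MUT3 and 2 for WT6 minus WT10. Fitting only the clones compared gave 5 in WT6 and 0 for WT6 minus WT10, against 31.3% and 0.0233% of all genes. It gave 6 in WT10 and 5 for WT10 minus MUT3, against 28.1% and 23.3% of all genes. Without WT6 at 5 and 25 ng/ml, chosen after seeing the data, 1 was called in WT6 and 0 for WT6 minus WT10. All genes called were then 1.41% and 0.0318%. The same refit gave 7 in WT10 and 5 for WT10 minus MUT3, against 38.8% and 24.1% of all genes. Without a filter WT10 minus MUT3 gave 2, against 3.05% of all genes. Leaving out 1 library gave 6 to 8 in WT6, 0 (without WT10 at 25 ng/ml) to 7 in WT10, 0 (without WT10 or MUT3 at 25 ng/ml) to 5 for WT10 minus MUT3 and 0 (without WT6 at 25 ng/ml) to 5 for WT6 minus WT10. Where 0 members passed, all genes called were 6 in WT10, 0 and 2 for WT10 minus MUT3 and 62 for WT6 minus WT10. The upper ends of 7, 5 and 5 came without WT6 at 5 ng/ml, against 32.8%, 17.9% and 29.3% of all genes. In WT6, all genes called ran from 36.7 to 62.4%. In MUT3 0 members were called under every alternative, with at most 1.33% of all genes called, when MUT3 was fitted alone. Level differences stayed at 9 to 10 for WT6 minus WT10 and 5 to 8 for WT10 minus MUT3. All genes called in these refits ran from 45.3 to 67.0% and from 16.7 to 46.7%. The 8 came with 45.7% and 46.7% of all genes and the 5 with 20.7%. Levels were not computed with RBM47 as the scale or with trends removed. Apart from the cases named by construction, the causes were not tested. With 1 library per condition, variation between cultures was not measured. No paired analysis was possible because the labels give no replicate numbers that groups share, and dose is already a term of the fit.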

Other observations

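The genes whose counts followed those of DUSP6 most closely, as deviations from the mean of their clone over the 15 libraries, were ROCK1 (Pearson r = 0.906), NUP50 (0.899), KLHL4 (0.895), GNG12 (0.89) and LOC100294145 (0.89). This is a description with no test. The WT6 libraries at 5 and 25 ng/ml also share a trend over transcript length, whose part in these values was not tested.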
